A study of Mus musculus with 12 samples.

Results

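The gamma crystallin genes of the mouse lens were followed across 4 *Trpm3* genotypes. The members were every row of the deposited count table whose gene name was *Cryga*, *Crygb*, *Crygc*, *Crygd*, *Cryge*, *Crygf*, *Crygn* or *Crygs*, which gave 8 genes of 55487 in the table. All 8 passed the filter on low counts, a level of at least 5 CPM (the count relative to the library's total) in at least 3 libraries, which 8984 genes passed. Levels are given in CPM or, for abundant genes, in kCPM, which is 1000 CPM.

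Lens RNA was sequenced from *Trpm3*-M/M, *Trpm3*-I/M, *Trpm3*-KO and wild-type mice at P7, 7 days after birth, with 3 libraries per genotype. TRPM3 is a calcium-permeable cation channel, and the study asked how its cataract-causing substitution I65M and its loss change lens gene expression. *Trpm3*-I/M mice were heterozygous and *Trpm3*-M/M mice homozygous for I65M, placed in the mouse gene by CRISPR/Cas9. *Trpm3*-KO mice came from homologous recombination and were re-derived from archived frozen embryos, and all lines were kept on the B6J background. Each library pooled 8 dissected lenses, 4 from males and 4 from females, so a value is a mean over lenses and no single animal can be seen. P-values therefore measure only the spread between these pools.

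Crystallins are the proteins that fill lens fiber cells and give the lens its refractive power. The gamma crystallins are small monomeric members of the beta-gamma superfamily, folded from Greek key motifs, and they are most concentrated in the dense core of the lens. Their phase separation in the cold underlies the reversible cold cataract of young lenses, and inherited changes in them are a classic cause of cataract in mice and people. *Cryga* to *Crygf* are made mainly while the core fibers form, *Crygs* is the gamma crystallin of the later-formed cortex, and *Crygn* encodes a member with features of both the beta and gamma branches that is also made in the retina.

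In the GRCm38 annotation, 5 members lay side by side on the minus strand of chromosome 1, within 54820 bases, in the order *Cryge* (chr1:65048554-65051149), *Crygd* (chr1:65061872-65063452), *Crygc* (chr1:65071525-65073689), *Crygb* (chr1:65080219-65082288) and *Cryga* (chr1:65100389-65103373). *Crygf* (chr1:65926520-65928307) lay 823146 bases further along, on the plus strand. *Crygn* was on chromosome 5 (chr5:24751003-24758008, minus strand) and *Crygs* on chromosome 16 (chr16:22805203-22811577, minus strand). These 2 genes stand apart from the chromosome 1 genes in sequence as well as in place.

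*Cryge* and *Crygf* are the pair whose reads are hardest to tell apart. Their coding sequences, 522 bases each, differed at 10 bases (98.1% identity), and the longest stretch without a difference was 134 bases. Of the 50-base words of either coding sequence, 41.9% were also in the other gene's transcripts, and of the 100-base words 14.9%. The coding bases 184 to 303, counted from 1 at the start codon, are shown because 4 of the 10 differences (capitals) fall there and because the result for *Trpm3*-KO turns on this pair:

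Cryge: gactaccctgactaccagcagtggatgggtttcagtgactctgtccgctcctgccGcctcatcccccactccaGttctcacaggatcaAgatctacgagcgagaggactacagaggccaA
Crygf: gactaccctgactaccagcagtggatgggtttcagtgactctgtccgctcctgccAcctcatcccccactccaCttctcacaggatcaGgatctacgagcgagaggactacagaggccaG

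With any other gene, *Cryge* shared 63.6% of its 50-base words, and *Crygb*, *Crygc* and *Crygd* shared 34.9% to 37.2%. *Cryga* shared 63.6%, all with an overlapping gene model, Gm28845, which was counted at no more than 0.77 CPM in any library. *Crygn* and *Crygs* shared none. The deposited counts are estimates, and in at least 11 of the 12 libraries they were not whole numbers for the 6 chromosome 1 genes, against 1 library for *Crygn* and 0 for *Crygs*. Decimal counts do not mark near-identical copies alone, since *Cryaa* and *Cryab* held them in 12 of 12 libraries. How reads of the shared stretches were assigned is not given in the sources used here, and the separate values of genes that share them are uncertain to that extent.

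The 6 chromosome 1 genes were all lower in both mutant lines, though not in *Trpm3*-KO, so the stretch before their start is shown for the 5 of them whose window lies outside annotated transcripts (RefSeq promoters, GRCm38.p6; 100 bases, 5′ to 3′ along the gene). Capitals mark the words TTTGTG and TATATA, the latter drawn out where it repeats:

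Cryga (chr1:65103374-65103473, minus strand): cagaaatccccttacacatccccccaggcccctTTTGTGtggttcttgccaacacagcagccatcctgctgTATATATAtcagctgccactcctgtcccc
Crygb (chr1:65082291-65082390, minus strand): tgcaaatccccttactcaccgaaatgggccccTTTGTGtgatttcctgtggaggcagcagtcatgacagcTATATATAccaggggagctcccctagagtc
Crygd (chr1:65063453-65063552, minus strand): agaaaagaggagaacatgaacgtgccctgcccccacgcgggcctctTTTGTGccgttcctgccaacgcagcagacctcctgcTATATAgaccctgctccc
Cryge (chr1:65051164-65051263, minus strand): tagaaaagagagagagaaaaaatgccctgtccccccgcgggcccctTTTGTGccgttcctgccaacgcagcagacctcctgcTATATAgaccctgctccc
Crygf (chr1:65926420-65926519, plus strand): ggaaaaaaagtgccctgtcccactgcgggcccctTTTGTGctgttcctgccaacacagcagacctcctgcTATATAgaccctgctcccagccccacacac

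Both words were found by searching for the longest runs that all 6 genes share in the 250 bases before the start, so their presence there is what the search chose. Searched on both strands, TATATA was in 5.01% and TTTGTG in 15.6% of the 32536 mouse promoters of that length. *Crygn* also held TATATA, and *Crygs* held TATAAA, which 12.3% of promoters held. Of the words known for lens factors, the Maf recognition word TGCTGA was in *Cryga*, *Crygc*, *Crygn* and *Crygs* (16.1% of promoters), the SOX word ACAAAG in *Cryga* and *Crygb* (16.5%), and the AP-1 word TGACTCA in *Crygn* and *Crygs* (4.45%). The promoters of *Cryge* and *Crygf* were 80.7% identical over the searched window, more than any other pair of members, the next being *Crygd* and *Crygf* at 65.5%.

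The libraries held 56162169 to 82090198 counted reads, with the *Trpm3*-mutant libraries deeper than the others. *Trpm3* itself was lowest in *Trpm3*-KO libraries, at 89.9 to 99.8 CPM. It stood at 250.6 to 285.1 CPM in wild-type libraries, and the mutant lines held more, with 370.2 to 413.4 CPM for *Trpm3*-I/M and 468.5 to 484.1 CPM for *Trpm3*-M/M. The knockout is thus marked by a log2 fold change of -1.49, not by a count of 0. *Trpm3*-I/M replicate 3 held 0.07 CPM of the female transcript *Xist*, against 45.8 CPM or more in the other libraries, so its stated mix of male and female lenses is in doubt and results for *Trpm3*-I/M are also given without it. The 45.8 CPM was in wild-type replicate 2, beside 210.3 and 162.3 CPM in wild-type replicates 1 and 3. Its mix may be uneven as well, and some results are also given without it. Lens fiber and lens epithelium markers were present in every library, and the corneal keratins *Krt12* and *Krt14* were at 0 in every library outside *Trpm3*-M/M.

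In wild-type lenses the 8 genes together took 26.7% ± 1.25 (SD, n = 3) of all counted reads, and 42.9% ± 0.98 of the reads of the 16 alpha, beta and gamma crystallin genes. The 6 chromosome 1 genes supplied 95.3% ± 0.29 of the gamma reads. Per kb of transcript, so that genes can be set side by side, *Cryge* led with 125.9 ± 13.0 kCPM per kb and *Cryga* followed with 117.3 ± 8.07, and the libraries of this pair overlapped. *Crygb* (71.0 ± 6.33) and *Crygd* (62.4 ± 5.84) overlapped as well. Below them, *Crygc* (45.6 ± 5.96), *Crygf* (30.4 ± 2.81), *Crygs* (13.8 ± 2.29) and *Crygn* (2.91 ± 0.23) each stood clear of their neighbours. 

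**Figure D1:**
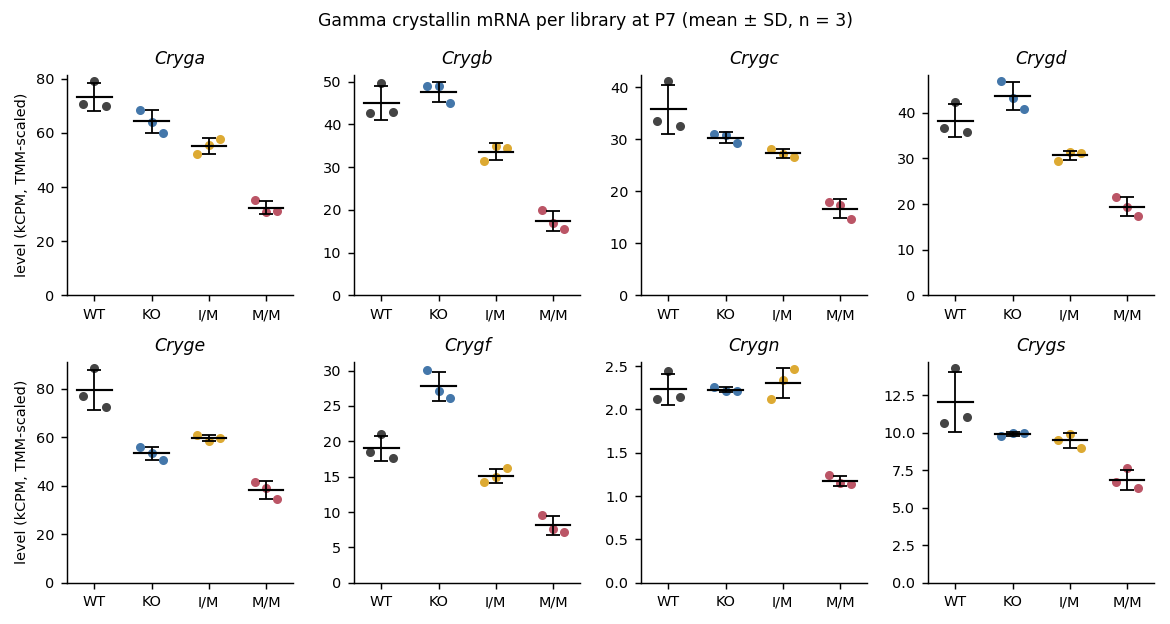
Each panel plots 1 gamma crystallin gene, with the 12 libraries as points by genotype, the level in kCPM (scaled by TMM factors) on the y axis, the mean as a bar and the SD as whiskers (n = 3). All *Trpm3*-M/M libraries lie below all wild-type libraries in every panel, and *Cryge* and *Crygf* part ways in *Trpm3*-KO.

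All 8 gamma crystallin mRNAs were lower in *Trpm3*-M/M than in wild-type lenses at P7. *Crygb* fell by 61.3%, the most of the 8, and *Crygs* fell by 42.8%, the least. With edgeR's quasi-likelihood test and Benjamini–Hochberg adjustment over all 8984 genes, 8 of 8 members passed an adjusted p of 0.05, where 31.4% of all tested genes were lower at that threshold. The study's stricter rule, which also asks for a fold change of at least 2, was met by 5 of the 8, *Cryga*, *Crygb*, *Crygc*, *Cryge* and *Crygf*, where 2.53% of tested genes were lower by that rule. The median log2 fold change of the members was -1.08, beside -0.004 over all tested genes.

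The chromosome 1 genes of the lens core came first. *Crygb* stood at 42.6, 49.7 and 42.9 kCPM in wild-type replicates 1 to 3, and at 19.9, 16.9 and 15.4 in *Trpm3*-M/M. Every wild-type library was far above every *Trpm3*-M/M library, and the log2 fold change was -1.37 ± 0.10 (SE; adjusted p = 5.54e-08, edgeR). *Crygf*, whose human counterpart is a pseudogene, stood at 18.5, 21.0 and 17.6 kCPM in wild-type and at 9.61, 7.60 and 7.15 in *Trpm3*-M/M. The groups did not overlap, with *Trpm3*-M/M replicate 1 the nearest to wild-type (log2 fold change -1.23 ± 0.11, adjusted p = 4.45e-07, edgeR).

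*Cryga* went from 70.8, 79.1 and 70.0 kCPM in wild-type to 35.2, 30.9 and 31.2 in *Trpm3*-M/M (log2 fold change -1.18 ± 0.08, adjusted p = 5.24e-08, edgeR). *Cryge*, the gene altered in the Elo mouse cataract, went from 77.2, 88.5 and 72.6 to 41.8, 38.9 and 34.4 kCPM (-1.05 ± 0.09, adjusted p = 3.52e-07). For both genes wild-type replicate 2 was the highest of all 12 libraries, and no *Trpm3*-M/M library reached a wild-type one. *Crygc*, whose human counterpart carries cataract mutations, went from 33.5, 41.1 and 32.6 to 17.9, 17.4 and 14.6 kCPM (-1.10 ± 0.10, adjusted p = 4.08e-07). *Crygd*, the mouse counterpart of the other main human gamma crystallin, went from 36.6, 42.3 and 35.8 to 21.5, 19.5 and 17.3 kCPM, which fell just short of 2-fold (-0.98 ± 0.09, adjusted p = 7.62e-07).

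Outside chromosome 1, the low-level *Crygn* stood at 2.12, 2.44 and 2.14 kCPM in wild-type and at 1.24, 1.16 and 1.14 in *Trpm3*-M/M (-0.92 ± 0.07, adjusted p = 7.28e-08, edgeR). The cortical *Crygs* stood at 10.7, 14.3 and 11.1 kCPM in wild-type and at 6.71, 7.63 and 6.34 in *Trpm3*-M/M (-0.81 ± 0.10, adjusted p = 1.27e-05). *Crygs* was the member with the widest wild-type spread relative to its mean, again through replicate 2, and its groups still did not overlap. Over the family, libraries of the 2 genotypes did not overlap for 8 of 8 members, where 65.2% of tested genes showed no overlap. The number past 2-fold was 3 in place of 5 without wild-type replicate 2 and likewise 3 without *Trpm3*-M/M replicate 3, since *Crygc* and *Cryge* then came to log2 fold changes between -0.99 and -0.96.

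**Figure D2:**
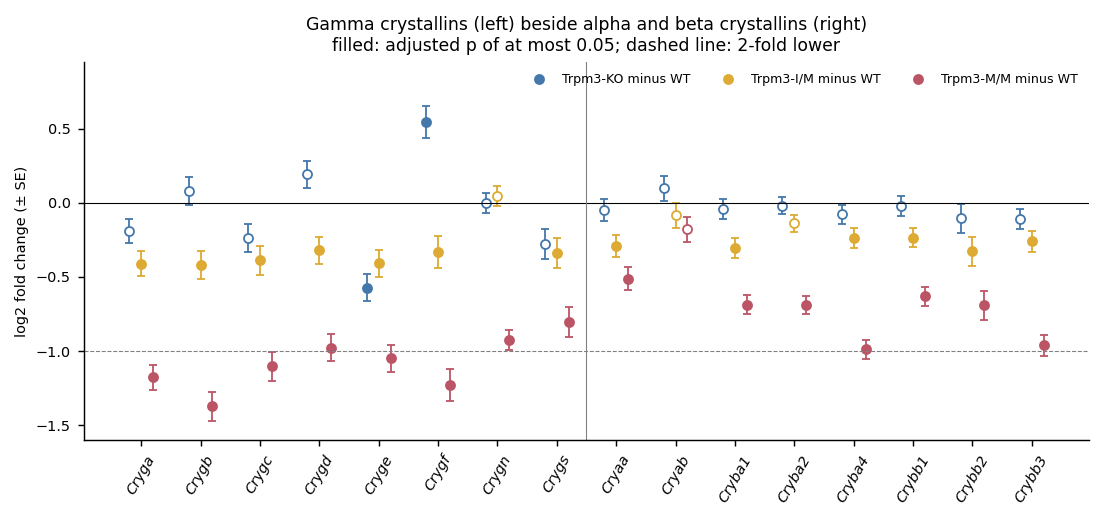
The log2 fold change against wild-type (y axis, ± SE from edgeR) is plotted for the 8 gamma crystallins and, right of the grey line, for the 8 alpha and beta crystallins, with filled points past an adjusted p of 0.05 and a dashed line at 2-fold lower. In *Trpm3*-M/M the 5 members past the dashed line are all gamma crystallins, the beta crystallins lie between -0.99 and -0.63, and *Cryab* is the 1 open point.

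The size of these differences depends on how libraries are scaled. Crystallins took 62.1% ± 1.56 of reads in wild-type and 50.5% ± 1.01 in *Trpm3*-M/M, and the TMM factors, which centre most genes on no change, differed between genotypes. Scaled by library size alone, the median over all tested genes moved to 0.50 on the log2 scale. The 8 members still all passed the adjusted p threshold, where 7859 of 8984 tested genes passed in either direction. They ran from -0.86 for *Crygb* to -0.29 for *Crygs* with a median of -0.56, but none was 2-fold lower. Scaled instead to the summed counts of the 16 crystallins, the gamma genes included, the median over all tested genes moved to 0.80. Then 6 members were lower, with *Crygb* at -0.56, *Crygf* at -0.42 and *Cryga* at -0.37. Of all 8984 tested genes, 8538 passed in either direction. On that scale *Crygn* was at -0.11 (adjusted p = 0.0992, edgeR) and the direction for *Crygs* turned to 0.01 (adjusted p = 0.886). The totals of 7859 and 8538 mix lower and higher genes, and the share lower was not counted under these scalings.

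**Figure D3:**
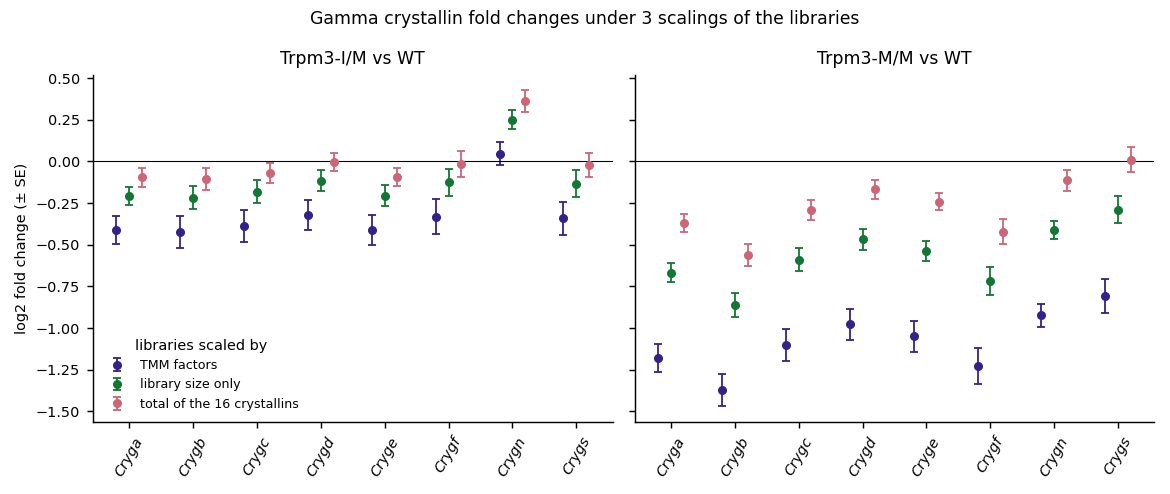
The log2 fold change of each gamma crystallin (y axis, ± SE from edgeR) is plotted for *Trpm3*-I/M (left) and *Trpm3*-M/M (right) against wild-type under 3 scalings of the libraries. In *Trpm3*-M/M the chromosome 1 genes stay below 0 under every scaling, whereas in *Trpm3*-I/M they lie at -0.11 to -0.0034 when scaled to the crystallin total.

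The share of counted reads shows the same order of genotypes. It amounts to scaling by library size alone, as above, so it is not a separate check on the scaling. The gamma genes took 16.3% to 18.8% of reads in *Trpm3*-M/M libraries, 23.0% to 24.0% for *Trpm3*-I/M and 25.57% to 28.03% for wild-type, and these ranges do not overlap. The alpha and beta crystallins took 35.5% ± 0.44 in wild-type and 33.0% ± 0.49 in *Trpm3*-M/M. The alpha crystallin *Cryaa*, a chaperone that keeps other lens proteins in solution, took 14.9% in both. Within the crystallin reads, the gamma share was 42.9% ± 0.98 in wild-type and 34.6% ± 1.89 in *Trpm3*-M/M (SD, n = 3), a gap larger than the spread of the replicates.

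On the TMM scale, 7 of the 8 alpha and beta crystallin genes were also lower in *Trpm3*-M/M at the adjusted p threshold, with a median of -0.69. None was 2-fold lower. Of all tested genes, 31.4% were lower at that threshold and 2.53% were 2-fold lower. The nearest to the gamma genes were the beta crystallins *Cryba4* (-0.99 ± 0.07) and *Crybb3* (-0.96 ± 0.07), while *Cryba1*, *Cryba2*, *Crybb1* and *Crybb2* lay between -0.69 and -0.63. *Cryaa* was at -0.51 ± 0.08, and *Cryab*, the small heat shock protein also made outside the lens, was at -0.18 ± 0.08 (adjusted p = 0.0787, edgeR). Each family's genes were compared with wild-type, and no test of one family against the other was made.

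Markers of the fiber cells that make gamma crystallins fell beside them. The 12 lens fiber markers summed to 33409 to 35742 CPM in wild-type and 17849 to 20449.6 in *Trpm3*-M/M. At the adjusted p threshold 9 of the 12 were lower, where 31.4% of tested genes were, and their median log2 fold change was -0.71 over the 12. *Bfsp1*, which encodes a beaded filament protein of fiber cells, was the 1 past 2-fold (-1.32 ± 0.11), where 2.53% of tested genes were 2-fold lower. *Bfsp1* was picked out after its value was seen. The 7 lens epithelium markers summed to 360.6 to 405.7 CPM in wild-type and 224.3 to 228.1 in *Trpm3*-M/M. Of these, 4 were lower and 2 higher, where 31.4% of tested genes were lower and 2820 of 8984 higher. The 2 higher were *Mki67* (0.58) and *Top2a* (0.55), genes of dividing cells of any type. In RNA of whole lenses, fewer cells of a type and less RNA per cell cannot be told apart.

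Markers of other tissues were low, and several of the lists, though not all, were higher in *Trpm3*-M/M. The 5 vascular endothelium markers summed to 5.61 to 7.89 CPM in wild-type and 31.0 to 38.3 in *Trpm3*-M/M, the 6 macrophage markers to 0.28 to 0.43 and 7.94 to 14.7, and the 4 cornea markers to 0.24 to 0.44 and 3.66 to 6.72. The 8 photoreceptor markers summed to at most 4.60 CPM in any *Trpm3*-M/M library, and the 5 red blood cell markers ran from 1.22 to 11.9 in wild-type and 12.36 to 14.95 in *Trpm3*-M/M. The 5 pigmented cell markers overlapped, with 3.09 to 3.63 CPM in wild-type and 2.89 to 3.46 in *Trpm3*-M/M, and 7 markers of other retinal neurons were lower, at 50.7 to 60.8 and 31.3 to 36.2. In *Trpm3*-I/M the endothelium (15.6 to 20.9 CPM), macrophage (0.81 to 0.92) and pigmented cell markers (5.32 to 6.17) were above wild-type. Markers of other retinal neurons were below it there (41.7 to 49.6 CPM), and those of cornea, photoreceptors and red blood cells overlapped wild-type. The part of other tissues in the gamma crystallin results was not tested. The summed level of the 8 gamma genes was 305.0 ± 29.2 kCPM in wild-type and 140.5 ± 13.1 in *Trpm3*-M/M.

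With 1 mutant allele the differences from wild-type were smaller. The comparisons of the 3 genotypes with wild-type share the same wild-type libraries. In *Trpm3*-I/M lenses 7 of the 8 gamma crystallin mRNAs were lower than in wild-type, by 19.9% (*Crygd*) to 25.3% (*Crygb*), with an adjusted p of at most 0.0313 in edgeR's quasi-likelihood test, where 15.3% of tested genes were lower at an adjusted p of 0.05. None was 2-fold lower, where 0.746% of tested genes were. The median of the members was -0.37, beside -0.0009 over all tested genes and -0.25 over the alpha and beta crystallins, of which 6 of 8 were lower.

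*Crygb* stood at 31.4, 35.0 and 34.5 kCPM in *Trpm3*-I/M replicates 1 to 3, all below the lowest wild-type library (log2 fold change -0.42 ± 0.10, adjusted p = 0.00465, edgeR). *Cryga* stood at 52.1, 55.5 and 57.9 (-0.41 ± 0.08, adjusted p = 0.00197) and *Cryge* at 61.0, 58.7 and 59.7 (-0.41 ± 0.09, adjusted p = 0.00363). These most abundant members held the firmest values, and *Crygf*, at 14.22, 14.99 and 16.18 kCPM, the least firm (-0.33 ± 0.11, adjusted p = 0.0313). *Crygc* (-0.39 ± 0.10), *Crygd* (-0.32 ± 0.09) and *Crygs* (-0.34 ± 0.10) lay in the same narrow band.

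*Crygn* was the exception, at 2.12, 2.34 and 2.46 kCPM beside 2.12, 2.44 and 2.14 in wild-type. The groups overlapped and the log2 fold change was 0.05 ± 0.07 (adjusted p = 0.635, edgeR), falling to -0.0013 without *Trpm3*-I/M replicate 3. Relative to library size alone *Crygn* was higher in *Trpm3*-I/M (0.25, adjusted p = 0.00192), and its share of the gamma reads was 0.99% ± 0.05 against 0.73% ± 0.02 in wild-type (SD, n = 3), with no overlap. Libraries of the 2 genotypes did not overlap for 7 of 8 members, where 44.6% of tested genes showed none.

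For *Crygd*, *Crygf* and *Crygs* these modest differences leaned on single libraries, and for the family on scaling. Without wild-type replicate 2, which held the highest wild-type level of all 8 genes, 4 members were lower in place of 7, since *Crygd*, *Crygf* and *Crygs* then missed the threshold (adjusted p of 0.0544, 0.107 and 0.0647, edgeR). Without *Trpm3*-I/M replicate 1 the number was 5, as *Crygd* and *Crygf* missed it (0.0586 and 0.104), without replicate 2 *Crygf* missed it (0.0798) and without replicate 3 *Crygs* did (0.075). *Cryga*, *Crygb*, *Crygc* and *Cryge* passed whichever library was left out. Scaled by library size alone, where the median of all genes moved to 0.20, 4 were lower. Scaled to the crystallin total, where that median was 0.31, none was lower and *Crygn* was higher (0.36, adjusted p = 0.000176, edgeR). Of the 8984 tested genes, 5016 and 6519 passed the threshold in either direction under these scalings, and the share lower was not counted.

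The step from 1 to 2 mutant alleles was seen directly by comparing *Trpm3*-M/M with *Trpm3*-I/M. All 8 members were lower in *Trpm3*-M/M (adjusted p of at most 0.00189, edgeR), where 25.7% of tested genes were, and the median log2 fold change was -0.74. *Crygn* (-0.97 ± 0.07), *Crygb* (-0.95 ± 0.10) and *Crygf* (-0.90 ± 0.11) led, *Cryga* (-0.77 ± 0.08), *Crygc* (-0.71 ± 0.10), *Crygd* (-0.66 ± 0.09) and *Cryge* (-0.64 ± 0.09) followed, and *Crygs* came last (-0.46 ± 0.10). None was 2-fold lower, where 1.02% of tested genes were, although *Crygb* and *Crygf* crossed that line without *Trpm3*-M/M replicate 1 and *Crygn* without *Trpm3*-I/M replicate 1 (2 and 1 genes). Libraries did not overlap for any of the 8, where that held for 60.5% of tested genes. Scaled by library size alone, 7 were lower with a member median of -0.43, and *Crygs* missed the threshold (-0.16, adjusted p = 0.0918, edgeR). Scaled to the crystallin total, 7 were lower with a median of -0.25, and *Crygs* turned to 0.03 (adjusted p = 0.683). The median over all tested genes was 0.31 and 0.50 under these scalings, and 6814 and 8018 of the 8984 passed the threshold in either direction. The share lower was not counted under them.

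For the 6 chromosome 1 genes the first mutant allele went with -0.42 to -0.32 and the second with -0.95 to -0.64. For *Crygn* the first went with 0.05 and the second with -0.97. The comparisons share the *Trpm3*-I/M libraries, and the difference between the 2 steps was not tested.

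In *Trpm3*-KO the family's total overlapped that of wild-type. In *Trpm3*-KO libraries the gamma genes took 24.7% to 25.9% of reads, overlapping the 25.57% to 28.03% of wild-type, and the summed level was 279.2 ± 14.9 kCPM beside 305.0 ± 29.2. By edgeR's quasi-likelihood test 2 of the 8 members passed an adjusted p of 0.05, *Cryge* lower and *Crygf* higher, where 4.36% of tested genes passed in either direction (2.2% lower and 2.16% higher). None changed 2-fold, where 0.568% of tested genes did. None of the 8 alpha and beta crystallins passed.

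*Cryge* stood at 56.1, 53.6 and 50.6 kCPM in *Trpm3*-KO replicates 1 to 3, beside 77.2, 88.5 and 72.6 in wild-type (log2 fold change -0.57 ± 0.09, adjusted p = 0.00188, edgeR). *Crygf* stood at 30.1, 27.2 and 26.1, beside 18.5, 21.0 and 17.6 in wild-type (0.55 ± 0.11, adjusted p = 0.00951). Neither gene's libraries overlapped between the genotypes. Of the reads counted to this pair, *Crygf* took 34.2% ± 0.64 in *Trpm3*-KO and 19.3% ± 0.17 in wild-type (SD, n = 3), and the mutant lines held 17.4% ± 1.19 for *Trpm3*-M/M and 20.2% ± 1.22 for *Trpm3*-I/M. All 3 knockout libraries, at 33.6% to 34.9%, stood above the highest of the 9 others, 21.3%.

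The near-identity of the pair, shown above, bears on this result. Counted as 1 gene, *Cryge* and *Crygf* together were at 81.2 ± 4.78 kCPM in *Trpm3*-KO and 98.5 ± 9.94 in wild-type, a log2 fold change of -0.28 with an adjusted p of 0.126 (edgeR), so the pair as a whole did not pass. This sum was added after the values were seen. Without *Trpm3*-KO replicate 1 the *Crygf* value was 0.49 and missed the threshold (adjusted p = 0.0523), leaving 1 member past it. Whether the split of reads within the pair follows the transcripts or the assignment of shared reads was not tested.

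The other members gave no call in *Trpm3*-KO. *Crygd*, at 46.9, 43.1 and 40.9 kCPM beside 36.6, 42.3 and 35.8, had a log2 fold change of 0.19 ± 0.09 (adjusted p = 0.292, edgeR). It passed when libraries were scaled by their size (0.24, adjusted p = 0.044) or to the crystallin total (0.27, adjusted p = 0.00736). Under these scalings 366 and 330 of the 8984 tested genes passed in either direction. *Crygb* was at 0.08 ± 0.10, *Crygn* at -0.0038 ± 0.07, *Cryga* at -0.19 ± 0.08, *Crygc* at -0.24 ± 0.10 and *Crygs* at -0.28 ± 0.10, with adjusted p of 0.154 to 0.986. Libraries did not overlap for 5 of 8 members, where that held for 23.2% of tested genes. As shares of the gamma reads, *Cryge* went from 26.0% ± 0.49 in wild-type to 19.1% ± 0.03 in *Trpm3*-KO, while *Crygf* went from 6.24% ± 0.08 to 9.94% ± 0.27, *Crygd* from 12.5% ± 0.03 to 15.6% ± 0.29 and *Crygb* from 14.8% ± 0.25 to 17.1% ± 0.39.

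**Figure D4:**
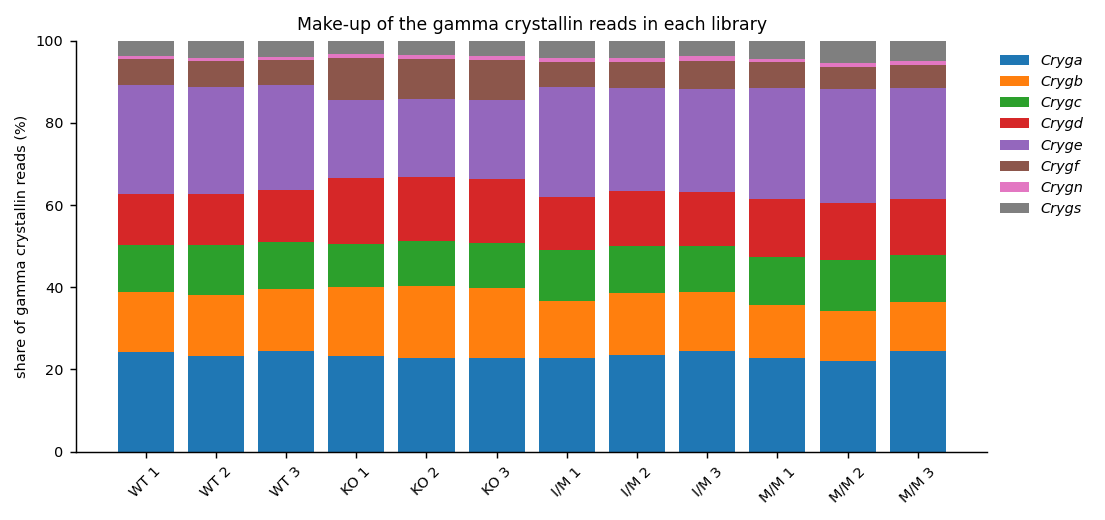
Each bar is 1 library and its segments are the shares of gamma crystallin reads counted to each gene (y axis, %). The *Cryge* segment is smaller in the 3 *Trpm3*-KO libraries, 19.1% to 19.2% of gamma reads, than in the 9 others, which hold 24.99% or more.

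The mutant genotypes also shifted the mix, less for *Cryge* and *Crygf* than *Trpm3*-KO did. In *Trpm3*-I/M, *Crygn* (0.99% ± 0.05 of gamma reads) and *Crygd* (13.1% ± 0.21) stood clear of their wild-type shares, and the other members overlapped. In *Trpm3*-M/M, *Crygb* took 12.4% ± 0.50 of gamma reads against 14.8% ± 0.25 in wild-type, *Crygs* 4.93% ± 0.55 against 3.93% ± 0.29, *Crygd* 13.8% ± 0.20 against 12.5% ± 0.03 and *Cryge* 27.3% ± 0.42 against 26.0% ± 0.49, each with no overlap of libraries. *Crygn* took 0.84% ± 0.04 in *Trpm3*-M/M against 0.73% ± 0.02 in wild-type, also with no overlap. The shares of *Cryga*, *Crygc* and *Crygf* overlapped between these genotypes. Per kb, the order of *Crygb* and *Crygd* was turned, with *Crygd* at 31.7 ± 3.37 and *Crygb* at 27.46 ± 3.6 kCPM per kb, and their libraries overlapped in both genotypes.

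Genes around the chromosome 1 cluster went in both directions. Within 1 Mb of the span from *Cryge* to *Crygf*, 11 other genes were tested. In *Trpm3*-M/M 5 were lower and 5 higher at the adjusted p threshold. Over all tested genes 31.4% were lower and 2820 of 8984 higher. The median log2 fold change of the 11 was -0.02, beside -1.14 for the 6 gamma genes there. On each side of the span the nearest tested genes were *Rpl10a-ps1*, a ribosomal protein pseudogene (-0.57), and *Map2*, a microtubule-associated protein of neurons (-0.76). *Idh1* (-0.02, adjusted p = 0.816, edgeR) and *Pikfyve* (0.27, adjusted p = 0.0184) lay inside it, between *Cryga* and *Crygf*. None of the 11 was 2-fold lower, where 2.53% of tested genes were. *Fzd5*, a Wnt receptor, was 2-fold higher (1.05, adjusted p = 3.03e-06, edgeR) and was picked out after its value was seen. In *Trpm3*-KO, *Map2* (0.87) and *Acadl*, a fatty acid oxidation enzyme (0.59), were higher and none was lower. Over all tested genes 2.16% were higher there and 2.2% lower.

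**Figure D5:**
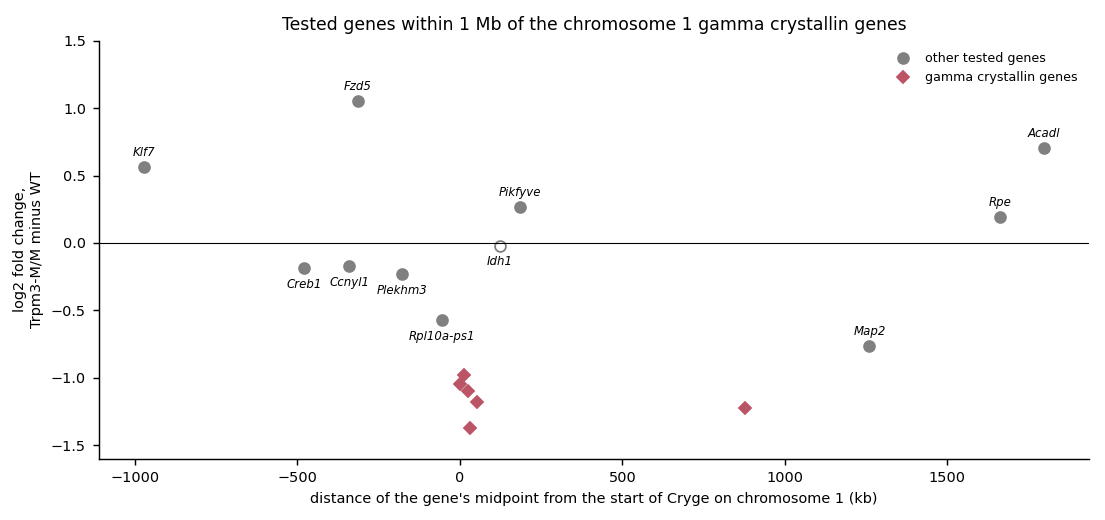
The log2 fold change between *Trpm3*-M/M and wild-type (y axis) is plotted by distance from *Cryge* (x axis, kb) for the gamma crystallin genes of chromosome 1 (red diamonds) and the 11 other tested genes within 1 Mb (grey, filled where the adjusted p is at most 0.05). The 6 diamonds lie between -1.37 and -0.98, below every grey point.

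Transcription factors and RNA-binding proteins known to regulate crystallin genes were followed as a list of 16. In *Trpm3*-M/M 12 were lower and 3 higher at the adjusted p threshold, with a median log2 fold change of -0.46. Of all tested genes, 31.4% were lower and 2820 of 8984 higher. Among the 16, 2 were 2-fold lower, where 2.53% of tested genes were. *Foxe3*, a forkhead factor of the lens epithelium, stood at 90.8 ± 14.0 CPM in wild-type and 19.2 ± 1.81 in *Trpm3*-M/M (-2.24 ± 0.12, adjusted p = 4.57e-09, edgeR). *Sox2*, which acts with Pax6 on early crystallin enhancers, stood at 20.3 ± 2.65 and 4.44 ± 0.28 CPM (-2.19 ± 0.10, adjusted p = 4.96e-10), and *Pax6*, the central regulator of eye development, at 85.4 ± 4.92 and 55.6 ± 1.49 (-0.62 ± 0.05, adjusted p = 9.77e-08).

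The direct activators of gamma crystallin promoters in fiber cells, *Maf* and *Sox1*, are given for that known role, after their values were seen. *Maf* was at -0.75 ± 0.07 (adjusted p = 7.41e-07, edgeR) and *Sox1* at -0.64 ± 0.07 (adjusted p = 4.01e-06). *Gata3*, *Pitx3* and *Mafk* were the 3 that were higher (0.90, 0.31 and 0.55). In *Trpm3*-I/M 7 of the 16 were lower and 2 higher, where 15.3% of tested genes were lower and 1552 of 8984 higher. *Sox2*, at -1.09, was the 1 past 2-fold there, where 0.746% of tested genes were 2-fold lower. In *Trpm3*-KO none of the 16 passed, where 4.36% of tested genes did in either direction.

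Among genes outside the crystallins, the 5 whose pattern over the 12 libraries lay nearest to the mean of the 6 chromosome 1 genes were *Fbxo10*, *Washc3*, *Plaat3*, *Rnf180* and *Peli1*. Nearness is the root mean square distance of log2 CPM after centring each gene, and it was 0.073 for *Fbxo10*, an F-box protein, and 0.096 for *Peli1*, an E3 ubiquitin ligase. *Washc3* is a subunit of the WASH complex, *Plaat3* a phospholipase that takes part in clearing organelles from lens fibers, and *Rnf180* another E3 ligase. The 6 genes themselves are part of that mean, so their own nearness is partly built in and their ranks are a description. By the same measure *Cryga* ranked 2 and *Crygd* 6 of 8984 genes, but *Cryge* ranked 451 and *Crygf* 504, which were the members set apart in *Trpm3*-KO. *Crygn* ranked 145 and *Crygs* 345, and of the other crystallins *Cryba4* came nearest, at rank 10.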

How the data were processed

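Lens RNA of 12 libraries, 3 per *Trpm3* genotype, was analysed, grouped by the genotype in the sample labels. The authors aligned and counted reads with DRAGEN and deposited estimated counts per gene, neither normalized nor pooled. Which strand was counted and how reads shared by near-identical genes were assigned is not given in the sources used here, and reads shared between copies can move counts between them. The table held 55774 rows for 55487 gene identifiers, and the 168 repeated identifiers held equal values and were used once. A second deposited table, with the authors' counts, CPM, fold changes and p-values, was not used. Whole counts had been assumed when the tests were chosen. In fact 88.4% of values were whole, and all were rounded.

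Genes reaching 5 CPM in 3 or more libraries were tested in edgeR 4.0.16 (R 4.3.3) with TMM factors and 1 quasi-likelihood fit of genotype over all libraries. P-values were adjusted by Benjamini–Hochberg within each comparison, and SE values come from the fold change and F statistic. CPM values use TMM factors, and CPM per kb divides by the annotated transcript length. Log2 CPM values carry a prior count of 2. DESeq2 1.42.0 was an alternative. Other alternatives were library size only, TMM without crystallins, upper-quartile factors, scaling to the crystallin total, a CPM minimum of 1, no filter, only the genotypes compared, a replicate block, and each library left out. On data simulated for *Trpm3*-M/M against wild-type, with 200 of 8984 genes changed by 2-fold or more, the fit recovered 199 and called 11 of the other genes. Smaller changes and a shift in the crystallin share were not simulated, so the recovery does not cover them. Coordinates are GRCm38 (GENCODE), matched by identifier for 55141 genes, and promoters are from RefSeq (all 8 members matched). Tables were made with Python 3.11.15, numpy 2.4.6 and pandas 2.3.3, and figures with matplotlib 3.10.9.

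The genes named are the 8 members, the 8 alpha and beta crystallins, regulators 2-fold changed in *Trpm3*-M/M or, with fewer than 3 of those, the 3 with the smallest p, *Trpm3*, the 5 nearest patterns and the nearest chromosome 1 neighbours. *Maf*, *Sox1*, *Gata3*, *Pitx3*, *Mafk*, *Bfsp1*, *Mki67*, *Top2a*, *Fzd5*, *Idh1*, *Pikfyve*, *Acadl*, *Xist*, *Krt12* and *Krt14* fall outside this rule and were named after their values were seen. Members and lists were chosen with earlier results of these data known. Libraries held 56162169 to 82090198 counts, so counting error is small for the members beside the spread of replicates.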

Additional observations from a re-analysis of the deposited data

How the results depend on the processing

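In *Trpm3*-M/M against wild-type, all 8 members stayed lower at the adjusted p threshold except when libraries were scaled to the crystallin total. There 6 did, *Crygn* missed it and *Crygs* turned to 0.011, and against *Trpm3*-I/M *Crygs* turned to 0.032 and missed the threshold under library size alone. The number 2-fold lower, 5, was 0 under library size alone and 0 under the crystallin total, and 3 to 6 with a library left out. Against *Trpm3*-I/M it was 1 with no filter and 0 to 2 with a library left out. In *Trpm3*-I/M against wild-type, 7 members passed the threshold, all lower. Under the crystallin total none was lower and 1 was higher, *Crygn*, and under library size alone 4 were lower and 1 higher. With a library left out the number past the threshold was 4 to 7, and *Crygn* ran from -0.0013 to 0.11. The gap in the gamma share was -2.02 points of crystallin reads beside -3.14 points of counted reads. In *Trpm3*-KO the number past the threshold, 2, was 3 under library size alone and 3 under the crystallin total (2 higher, 1 lower in each), as *Crygd* joined. With no filter it was 6 (2 higher, 4 lower), and with a library left out it was 1 to 2. In this genotype *Crygf* turned to -0.28 when summed with *Cryge*. *Crygn* turned to 0.049 under library size and 0.080 under the crystallin total, and ran from -0.040 to 0.065 with a library left out. The causes were not tested. Same-numbered replicates did not deviate together (r of -0.264 to 0.149 over 18 pairs, each across genes), and the replicate block left the numbers past the threshold at 8, 7, 2 and 8 and changed no member's call.

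Depth does not limit these genes, and how reads of near-identical copies were assigned was not tested. With 3 pools per genotype, the *Trpm3*-I/M calls of *Crygd*, *Crygf* and *Crygs* rest on single libraries, and those of *Cryga*, *Crygb*, *Crygc* and *Cryge* passed with each library left out.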
